A study of Mus musculus with 9 samples.

Results

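PPARγ binding was described at the loci of 4 genes that carry out the work of brown fat: Dio2, Elovl3, Cox7a1 and Cox8b. The members were all rows of the table of PPARγ binding sites (peaks) whose midpoint fell in a fixed window around 1 of the genes. In mm10 coordinates the windows were 90.71 to 90.76 Mb on chromosome 12 for Dio2, 46.11 to 46.15 Mb on chromosome 19 for Elovl3, 30.17 to 30.2 Mb on chromosome 7 for Cox7a1, and 140.885 to 140.915 Mb on chromosome 7 for Cox8b. They held 17 of the 66066 peaks, of which 6 lay in the Dio2 window, 3 in the Elovl3 window, 4 in the Cox7a1 window and 4 in the Cox8b window. The nearest annotated start site was that of the named gene for 12 of the 17. The other 5 lay nearer to Pitx3 (1 peak), Capns1 (2 peaks), BC024386 (1 peak) or Nlrp6 (1 peak), so they belong to the windows but not necessarily to the named genes.

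Chromatin immunoprecipitation (ChIP)-sequencing for PPARγ was done on interscapular brown adipose tissue (iBAT) of male C57BL/6J mice, an inbred strain, that were 10 weeks old, chow-fed, not fasted and kept at 22 °C in a 12h:12h light:dark cycle. Tissue was taken every 3 h from ZT0, the start of the light phase, to ZT21, and the time points shared genotype, age, diet and housing, with no treatment. Each of the 8 time points was 1 library made from pooled tissue, of 8 mice according to the ChIP protocol. The description of the animals gives 4 mice per time point for the experiment and no size of the pools. There was thus 1 library per time point (n = 1) and no estimate of the spread between mice or preparations. The tests below use either the order of the 8 libraries in time or their departures from a fitted curve as the spread. In pooled tissue, binding in fewer cells and less binding per cell cannot be told apart.

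PPARγ is a nuclear receptor and the main regulator of adipocyte differentiation. It binds DNA together with the retinoid X receptor, most often at a DR1 element, a direct repeat of the bases AGGTCA with a single base between the repeats. In brown adipocytes it sits at many genes of heat production and lipid handling, where other factors such as PGC-1α and C/EBPs work with it. Dio2 encodes the type 2 deiodinase, which turns thyroxine into the active hormone triiodothyronine inside the cell and is known to be induced through cAMP when sympathetic nerves stimulate brown fat. Elovl3 encodes an enzyme that lengthens very long chain fatty acids and is strongly induced by cold. Cox7a1 and Cox8b encode isoforms of subunits of cytochrome c oxidase, the terminal enzyme of the respiratory chain, that are found in heart, skeletal muscle and brown fat.

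The libraries held 29572225 to 34264812 reads in peaks each, and the TMM factors that correct for composition ran from 0.959 to 1.04. A normalized read count below is the count divided by the library's total times this factor, set to the median total of 31733719.5 reads. The factors differed with time of day. They were 1.004, 0.985, 0.959 and 0.980 from ZT0 to ZT9, and 0.984, 1.03, 1.04 and 1.02 from ZT12 to ZT21. Dividing by them raises ZT6 relative to ZT15, ZT18 and ZT21. Intervals are 95% Wilson intervals of the count, which cover counting error only. Of the tissue's marker genes, Ucp1 had 8 peaks with a strongest mean normalized count of 10490, and Cidea, Adipoq, Plin1 and Fabp4 had strongest peaks between 6441 and 10010. The muscle genes Ckm and Myod1 and the macrophage gene Cd68 had no peak, Acta1 had 1 peak at 416 and Ptprc 1 peak at 58.2. These are levels of binding and not of RNA.

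The promoter sequences show what lies under the peaks at the gene starts. Of the 4 genes, 3 matched the RefSeq promoter table (GRCm38.p6), and the 250 bases before each start site are given 5′ to 3′ on the gene's own strand. All of them lay inside the promoter peak. The capitals mark the closest match to a DR1 element, written AGGTCANAGGTCA and searched on both strands.
Dio2 (chr12:90739039-90739288, minus strand): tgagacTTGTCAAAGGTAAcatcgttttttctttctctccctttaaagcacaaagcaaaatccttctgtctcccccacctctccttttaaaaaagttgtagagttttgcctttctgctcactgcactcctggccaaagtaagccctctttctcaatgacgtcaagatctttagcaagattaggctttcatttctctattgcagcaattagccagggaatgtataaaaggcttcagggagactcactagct
Cox7a1 (chr7:30183921-30184170, plus strand): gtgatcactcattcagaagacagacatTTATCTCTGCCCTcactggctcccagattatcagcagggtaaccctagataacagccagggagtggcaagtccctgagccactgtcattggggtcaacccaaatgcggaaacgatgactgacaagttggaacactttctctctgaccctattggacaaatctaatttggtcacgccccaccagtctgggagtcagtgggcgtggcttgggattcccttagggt
Cox8b (chr7:140900447-140900696, minus strand): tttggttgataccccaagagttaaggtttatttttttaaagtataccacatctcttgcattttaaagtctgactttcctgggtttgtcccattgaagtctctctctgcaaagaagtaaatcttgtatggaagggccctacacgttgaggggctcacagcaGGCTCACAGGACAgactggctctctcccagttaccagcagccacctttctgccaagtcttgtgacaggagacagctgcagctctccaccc

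In each of these promoters the closest match differed from the element at 3 of its 12 fixed bases. A match as close as this was present in 21.3% of the 32851 promoters of the table, and a match with up to 2 mismatches in 3.24%. The Dio2 promoter held the cAMP response element TGACGTCA, which reads the same on both strands, with its first base 95 bases before the start site. This motif was found in 1.55% of the promoters of the table and in neither the Cox7a1 nor the Cox8b stretch. It was looked for after the sequences had been seen, and a match describes letters and not a site in use.

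Closer DR1 matches lay elsewhere in the peaks. With up to 2 mismatches, 6 of the 17 peaks held an element (35.3%, 95% Wilson interval 17.3 to 58.7%), beside 15596 of all 66066 peaks (23.6%). Over all peaks this share was 14.1% in the shortest of 4 length classes and 40.4% in the longest. Of the 7 member peaks of over 1338 bp, which belong to the longest class, 3 held an element, and the interval of the members spans 23.6 and 40.4%. The elements with a single mismatch and 2 elements of the Cox8b window with 2 mismatches are given below with 40 bases to either side, read 5′ to 3′ on the strand of the element, which is in capitals.
Dio2 intron peak, 5.2 kb into the gene (chr12:90734197-90734289, plus strand): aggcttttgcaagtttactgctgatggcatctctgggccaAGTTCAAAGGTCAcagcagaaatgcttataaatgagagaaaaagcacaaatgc
Cox7a1 promoter peak (chr7:30184713-30184805, minus strand): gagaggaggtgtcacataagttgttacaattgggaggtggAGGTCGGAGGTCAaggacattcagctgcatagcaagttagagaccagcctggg
Cox8b promoter peak, within the gene (chr7:140899705-140899797, minus strand): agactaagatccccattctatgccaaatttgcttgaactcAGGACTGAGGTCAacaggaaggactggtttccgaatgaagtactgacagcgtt
Cox8b window, peak 13.9 kb upstream (chr7:140914208-140914300, minus strand): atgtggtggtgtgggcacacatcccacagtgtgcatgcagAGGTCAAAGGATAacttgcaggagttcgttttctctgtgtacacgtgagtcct

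Positions in an element are counted from 1 at its 5′ end, and the base of the DR1 element is written first. The Dio2 intron element carried G3T and the Cox7a1 element A6G. The element within Cox8b carried T4A and A6T, and the one 13.9 kb upstream of Cox8b T11A and C12T. The 3 peaks of the Elovl3 window held matches with 3 mismatches only.

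Within the windows, the strength of binding differed widely between the promoter peaks, with no input subtracted. Dividing each peak's mean normalized count by its length gave 910 reads per kb at the Cox8b promoter peak, 464 at Dio2, 441 at Cox7a1 and 274 at Elovl3, where the median of all peaks was 268. The Cox8b promoter peak was the highest of the 4 and the Elovl3 promoter peak the lowest in 8 of 8 libraries. Dio2 and Cox7a1 were neighbours in this order that did not separate, since Dio2 was the higher in 6 libraries and Cox7a1 in 2.

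**Figure D1:**
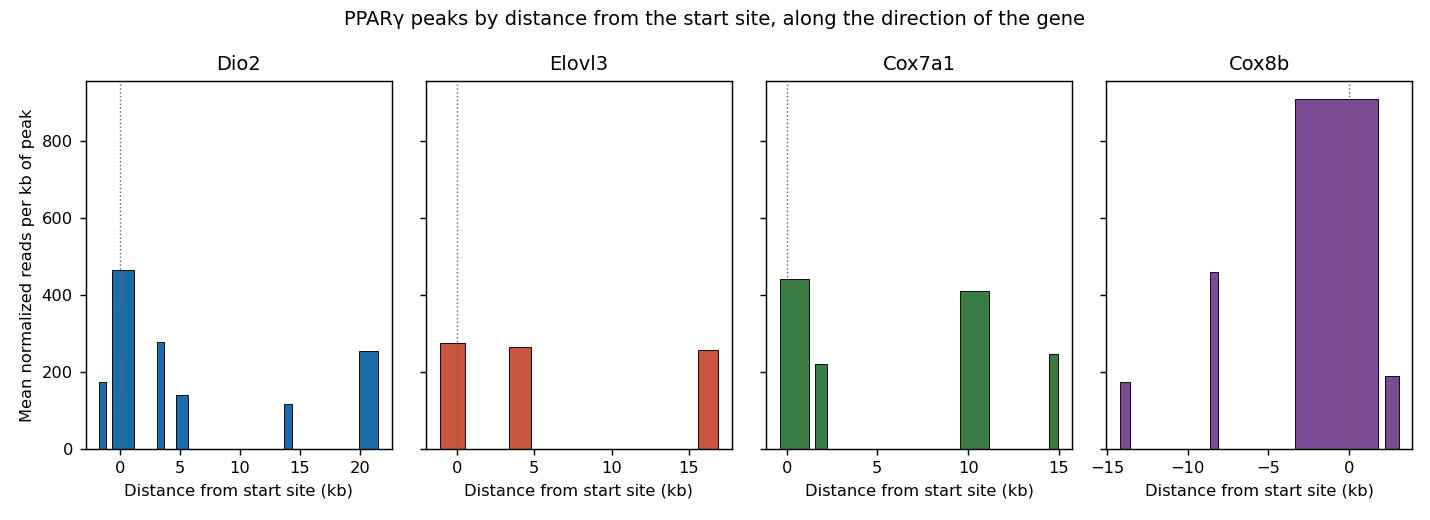
Mean normalized reads per kb (vertical axis) of each peak in the 4 windows against its distance in kb from the start site of the named gene, positive along the direction of the gene, with bar width equal to peak length and a dotted line at the start site. The Cox8b promoter peak stands at 910 reads per kb, and the 3 Elovl3 peaks are nearly level, from 258 to 274.

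Within the windows, Cox8b carried the strongest binding. Its gene spans chr7:140898942-140900446 on the minus strand, and a single peak of 5135 bp (chr7:140898647-140903781) covered the whole gene and the region upstream of it. With a mean normalized count of 4671 this peak ranked 322nd of the 66066, and 1686th by reads per kb. It held 89.9% of all reads counted in the peaks of its window. Its normalized counts were 4728, 4857, 4853 and 4422 in the light phase (ZT0, ZT3, ZT6 and ZT9) and 4604, 4362, 4709 and 4831 in the dark phase (ZT12, ZT15, ZT18 and ZT21). The highest library was thus 1.11 times the lowest, the smallest such ratio among the 17 peaks.

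The lowest count, at ZT15 (interval 4237 to 4491), and the highest, at ZT3 (4726 to 4992), were apart by more than counting error. Across the members this held for 17 of 17 peaks, beside 83.9% of all peaks, and picking the extremes of 8 libraries favours it. Between libraries next to each other in order of level, the intervals overlapped in all 7 pairs for 16 of the 17 peaks. Single steps in the order were thus not resolved in these peaks, and this overlap was not counted over all peaks.

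JTK-cycle, the test of the study for oscillation, compares the order of the 8 libraries with that of cosine curves of 21 and 24 h and gives an exact P, adjusted over the 15 curves tried. With 8 values it can take few values, the lowest being 0.000744, 0.00595, 0.0260 and 0.0826, and a peak was called oscillating at P under 0.05. Oscillation was called for 3 of the 17 members, beside 11.6% of all peaks. With TMM factors 7686 of all peaks were called, and with library totals alone 8123, which is nearer to the study's own count. The study names edgeR for its normalization without the kind of factor. With library totals alone 1 member was called. A cosine of 24 h was also fitted by edgeR's quasi-likelihood method. At an adjusted p under 0.05 it was called for 13.4% of all peaks and for 0 of the 17 members. The lowest unadjusted edgeR p of a member was 0.0533, and unadjusted values were not counted over all peaks. DESeq2's likelihood ratio test of the same cosine also called 0 of the 17, beside 15.0% of all peaks. The adjusted p of the members in edgeR ran from 0.166 to 0.798. After Benjamini-Hochberg adjustment over all peaks, the lowest JTK q of a member was 0.224 and that of any peak 0.0968, so neither reached 0.05.

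The Cox8b promoter peak was 1 of the 3 peaks called by JTK-cycle (exact adjusted P = 0.0260), with an estimated peak time (LAG) of 4.5 h at a period of 21 h. Its cosine amplitude was 0.06 ± 0.02 (SE, log2 scale, 8 libraries), and the edgeR adjusted p was 0.462. The call was lost with library totals alone (exact JTK P = 0.212), under upper-quartile factors (exact P = 0.467) and under DESeq2's size factors (exact P = 0.212), and it remained with cyclic loess (exact P = 0.0260). It was also lost with a period of 24 h alone (exact P = 0.113). With single libraries left out it remained without ZT9 or ZT12 and was lost without any of the other 6, where the exact P ran up to 1.

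The narrow peak 8.4 kb upstream of Cox8b (chr7:140908558-140909095) was intergenic, and its nearest start site was that of BC024386. Its normalized counts were 225, 241, 210 and 222 in the light phase (ZT0 to ZT9) and 254, 274, 286 and 269 in the dark phase (ZT12 to ZT21). All 4 libraries of the dark phase (ZT12 to ZT21) stood above all 4 of the light phase, and the highest was 1.36 times the lowest. JTK-cycle called it with a LAG of 18 h and a period of 24 h (exact adjusted P = 0.0260), and it was the single member called under all 4 other normalizations. Its cosine amplitude was 0.20 ± 0.04 (SE, log2 scale, 8 libraries), the edgeR adjusted p was 0.166, and the call remained with ZT0, ZT3 or ZT9 left out and was lost without ZT6, ZT12, ZT15, ZT18 or ZT21, each at an exact P of 0.161. At 460 reads per kb it was denser than the Dio2 intron peaks although it is short.

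The remaining 2 peaks of the Cox8b window lay to either side. The one 2.7 kb along the gene's direction (chr7:140897344-140898202) lay in intron 12 of Psmd13, a subunit gene of the proteasome, and ranged from 131 at ZT21 to 195 at ZT12. The one 13.9 kb upstream (chr7:140914017-140914679), nearest to the inflammasome gene Nlrp6, had 184 normalized reads at ZT6 (interval 159 to 212) and between 94.2 and 125 in the other 7 libraries. This was the only member in which 2 libraries next to each other in level, ZT6 and ZT12, had intervals that did not overlap. Neither peak was called by JTK-cycle (exact P = 0.915 and 0.467), but the upstream one was called when ZT9 was left out (exact P = 0.00595), as was the Psmd13 peak (exact P = 0.0417).

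**Figure D2:**
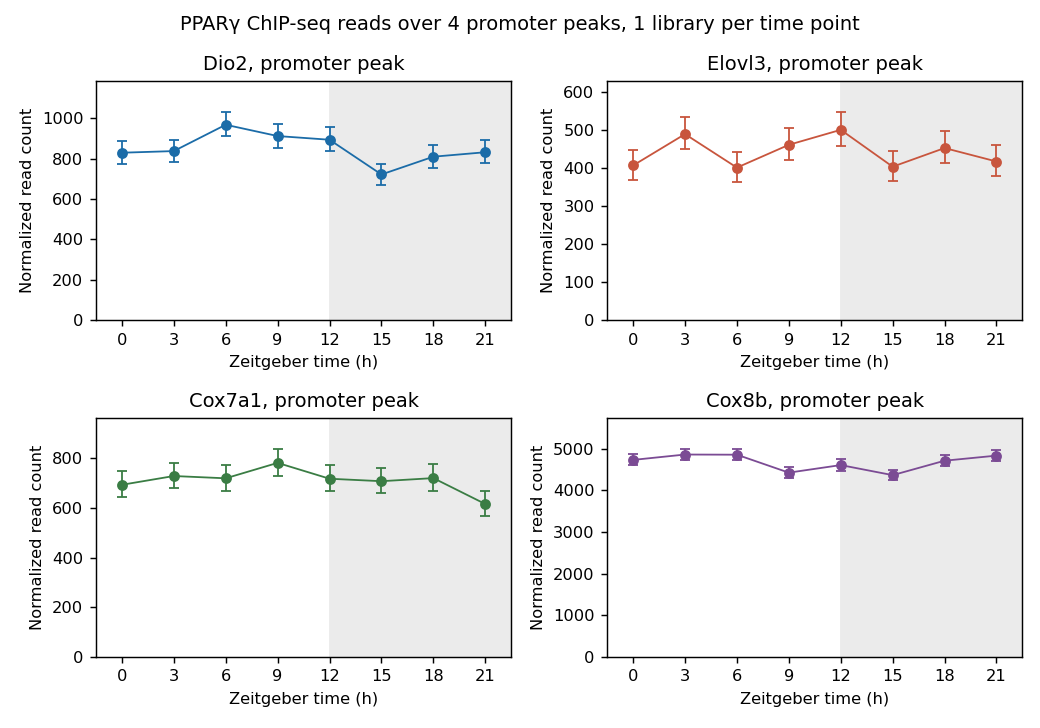
Normalized read counts (vertical axis, from 0) of the 4 promoter peaks against Zeitgeber time in h, 1 library per point, with bars for the 95% Wilson interval of the count and the dark phase shaded. The Cox8b promoter peak stays between 4362 and 4857, and the Dio2 promoter peak is highest at ZT6 (968) and lowest at ZT15 (722).

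At Dio2, binding was spread over 6 peaks along the gene. The gene spans chr12:90724552-90739038 on the minus strand with 2 exons. The promoter peak (chr12:90737860-90739690, 1831 bp, centre in the untranslated part of exon 1) had a mean normalized count of 850, which was 49.0% of the window's reads. Its counts were 829, 837, 968 and 912 in the light phase (ZT0 to ZT9) and 894, 722, 810 and 832 in the dark phase (ZT12 to ZT21). The 3 libraries from ZT6 to ZT12 were the highest and ZT15, 3 h after ZT12, the lowest. The ratio of the highest to the lowest was 1.34.

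JTK-cycle called the Dio2 promoter peak with a LAG of 7.5 h at a period of 21 h (exact adjusted P = 0.0260). The cosine amplitude was 0.13 ± 0.05 (SE, log2 scale, 8 libraries), with an edgeR adjusted p of 0.265. The call remained under upper-quartile factors and DESeq2's size factors (both exact P = 0.0260) and was lost with library totals (exact P = 0.915), with cyclic loess (exact P = 0.212) and with a period of 24 h alone (exact P = 0.113). It remained without ZT3 or without ZT12 (both exact P = 0.0417) and was lost without any other single library.

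The 2 peaks in intron 1 of Dio2 had a course like that of the promoter. The peak 3.4 kb into the gene (chr12:90735350-90735950) had normalized counts of 156, 151, 237 and 195 in the light phase (ZT0 to ZT9) and 146, 111, 159 and 180 in the dark phase (ZT12 to ZT21). It was highest at ZT6 and lowest at ZT15, as the promoter was, and its ratio of 2.13 was the largest of the 17. The peak 5.2 kb into the gene (chr12:90733367-90734382), which holds the element with G3T shown above, was at 125, 120, 180, 167, 163, 103, 122 and 161 in the same order of time points. Over the 8 libraries the log2 counts of these peaks correlated with the promoter's at r = 0.87 and r = 0.89, values that share the libraries and their normalization. JTK-cycle called neither (exact P = 0.915 and 0.467). Without ZT3, the peak at 5.2 kb was called (exact P = 0.0417).

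The other 3 peaks of the Dio2 window were weaker or farther away. The peak in the untranslated part of exon 2 (chr12:90724697-90725356) had 60.3 to 95.6 normalized reads and the one 1.4 kb upstream of the start site (chr12:90740203-90740730) 66.4 to 108, where the Wilson interval of a single count spans about as much as the range over the day. The intergenic peak 20.7 kb beyond the start site, past the end of the gene (chr12:90717512-90719117), had a mean of 409 and its highest count, 506, at ZT18. The promoter peak had one of its lower counts at that time, and the log2 counts of the pair correlated at r = 0.18 over the 8 libraries. The weak exon 2 peak was highest at ZT6, as the promoter peak was, and its log2 counts correlated with the promoter's at r = 0.75.

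**Figure D3:**
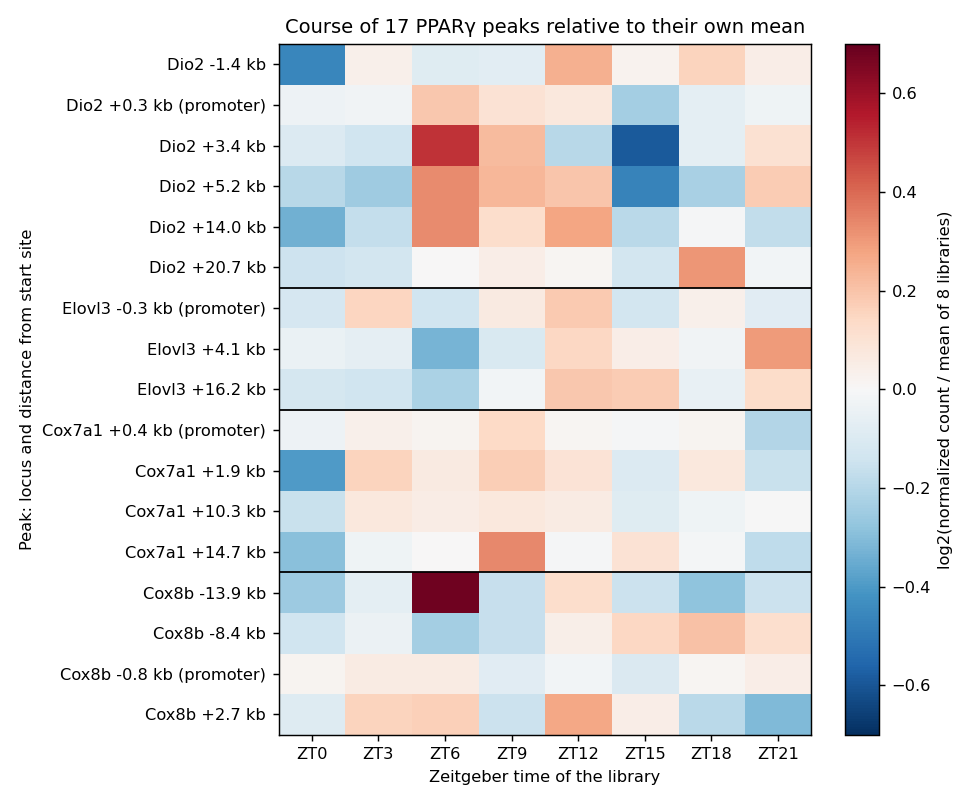
Course of the 17 peaks, each row a peak named by its locus and the distance of its centre from the gene's start site, each column a library, and colour the log2 ratio of the normalized count to the peak's mean over 8 libraries. The Dio2 rows at +0.3, +3.4 and +5.2 kb are red at ZT6 and blue at ZT15, and the row 8.4 kb upstream of Cox8b is blue from ZT0 to ZT9 and red from ZT12 on.

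At Elovl3, the 3 peaks were close to one another in density and 0 of them was called by JTK-cycle or edgeR. The gene lies on the plus strand from chr19:46131897, and its 2 annotated transcripts end at 46135312 and 46135694. The promoter peak (chr19:46130764-46132377) had normalized counts of 408, 490, 402 and 462 in the light phase (ZT0 to ZT9) and 501, 404, 453 and 418 in the dark phase (ZT12 to ZT21). High and low libraries alternated, with ZT3, ZT9, ZT12 and ZT18 above the other 4, and the ratio of highest to lowest was 1.25 (exact JTK P = 1). The cosine amplitude was 0.06 ± 0.07 (SE, log2 scale, 8 libraries).

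The peak at the 3′ end of Elovl3 (chr19:46135231-46136689) overlapped the last exon of Pitx3, a homeobox gene on the other strand, so its reads cannot be given to one gene. It was at 374, 370, 309, 358, 427, 399, 380 and 475 from ZT0 to ZT21, lowest at ZT6 and highest at ZT21 (exact JTK P = 0.467). The peak at the start of Pitx3, in its intron 1 and 16.2 kb along from the Elovl3 start (chr19:46147477-46148794), was also lowest at ZT6, at 292, and highest at ZT12, at 387 (exact JTK P = 0.467). The 2 peaks correlated with each other at r = 0.82 over the 8 libraries and with the Elovl3 promoter at r = 0.17 and 0.15.

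At Cox7a1, 0 of the 4 peaks was called by JTK-cycle or edgeR, and the highest library of the promoter peak was 1.27 times its lowest. The gene is short, chr7:30184171-30186030 on the plus strand with 4 exons, and its promoter peak (chr7:30183792-30185402, centre in intron 1) reached over much of it. The counts were 693, 729, 720 and 782 in the light phase (ZT0 to ZT9) and 718, 708, 721 and 616 in the dark phase (ZT12 to ZT21). In 6 of the libraries they lay between 693 and 729, with ZT9 above and ZT21 below, and JTK-cycle did not call the peak (exact P = 0.915). The amplitude of the cosine was 0.09 ± 0.04 (SE, log2 scale, 8 libraries), with an edgeR adjusted p of 0.451.

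The peak at the 3′ end of Cox7a1 (chr7:30185716-30186416) ran from 117 at ZT0 to 174 at ZT9 (exact JTK P = 0.467). The next peak along (chr7:30193703-30195320) covered the start of Capns1, which encodes the small regulatory subunit of calpains, and at 664 normalized reads was about as strong as the Cox7a1 promoter peak. It ran from 597 at ZT0 to 699 at ZT3 (exact JTK P = 1). The weakest, upstream of Capns1 (chr7:30198648-30199138), ran from 98.1 at ZT0 to 152 at ZT9 and came nearest to the threshold of the peaks that were not called (exact JTK P = 0.0826), with calls when ZT12 was left out (exact P = 0.00595) or with a period of 24 h alone (exact P = 0.0441). ZT0 was the lowest library in 3 of the 4 peaks of this window, and in 6 of the 17 members. How often ZT0 was the lowest over all peaks was not counted.

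Dividing the promoter peak by the strongest other peak of its window within each library needs no normalization between libraries. At Dio2 the other peak was the intergenic one 20.7 kb beyond the start site, and at Cox8b the one 8.4 kb upstream. At Elovl3 it was the peak that overlapped Pitx3, and at Cox7a1 the one at the start of Capns1. The ratio at Dio2 was 2.24, 2.23, 2.36 and 2.16 in the light phase (ZT0 to ZT9) and 2.17, 1.93, 1.60 and 2.06 in the dark phase (ZT12 to ZT21), with the 3 lowest values at ZT15, ZT18 and ZT21. At Cox8b it was 21.0, 20.2, 23.2 and 20.0 in the light phase (ZT0 to ZT9) and 18.1, 15.9, 16.5 and 18.0 in the dark phase (ZT12 to ZT21), and all 4 values of the light phase were above all 4 of the dark phase. The denominator at Dio2 by itself had its highest count, 506, at ZT18, where the ratio was lowest. The denominator at Cox8b, the peak 8.4 kb upstream, by itself stood higher in all 4 libraries of the dark phase. JTK-cycle called neither ratio (both exact P = 0.0826). With a period of 24 h alone both were called (exact P = 0.0441), as was the Dio2 ratio without ZT0 or ZT9 and the Cox8b ratio without ZT0 or ZT3 (each exact P = 0.0417). Against the sum of all other peaks of the window, the exact P was 1 at Dio2 and 0.467 at Cox8b. At Elovl3 the ratio ran from 0.880 to 1.32 (exact P = 0.915) and at Cox7a1 from 0.929 to 1.16 (exact P = 1).

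**Figure D4:**
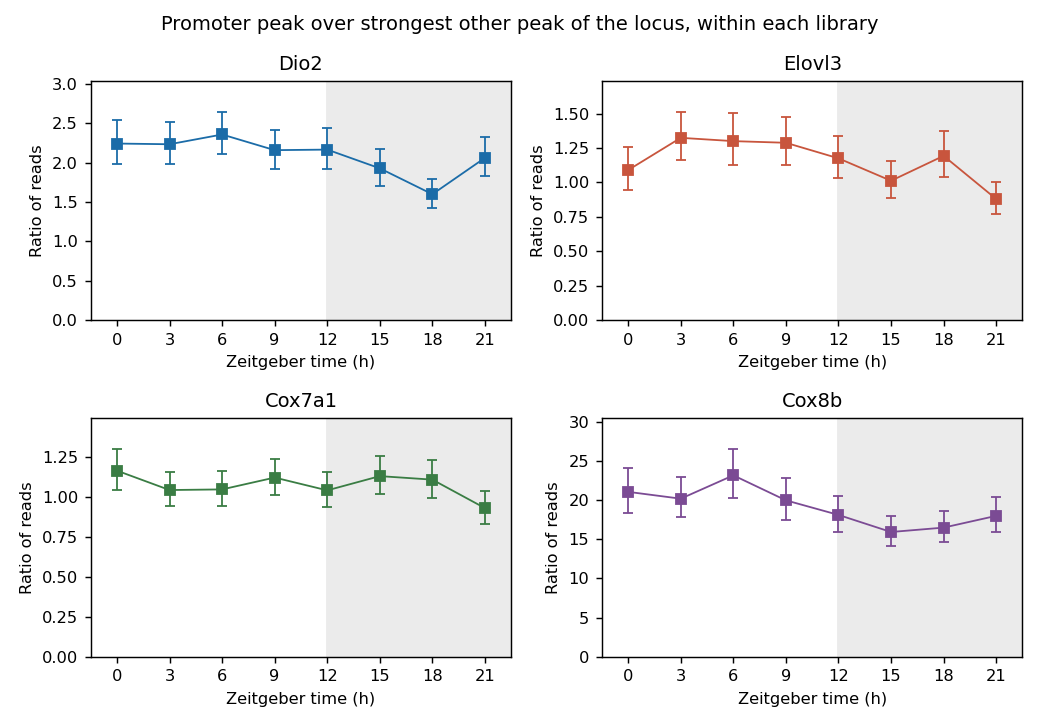
Ratio of the reads in the promoter peak to those in the strongest other peak of the window (vertical axis, from 0) in each library, against Zeitgeber time in h, with 95% Wilson intervals and the dark phase shaded. The Cox8b ratio runs from 23.2 at ZT6 to 15.9 at ZT15, and the Cox7a1 ratio stays between 0.929 and 1.16.

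Summed over each window, the normalized counts ran from 1469 at ZT15 to 1976 at ZT6 for Dio2, from 1003 at ZT6 to 1315 at ZT12 for Elovl3, from 1505 at ZT0 to 1806 at ZT9 for Cox7a1 and from 4891 at ZT9 to 5428 at ZT6 for Cox8b. The library with the highest sum for Dio2 and Cox8b, ZT6, was thus the lowest for Elovl3. Over the 17 peaks, the highest library was ZT6 for 5, ZT12 for 4, ZT9 for 3, ZT3 for 2, ZT18 for 2 and ZT21 for 1. How often each library was the highest over all peaks was not counted.

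The size of the changes was near that of other peaks. The median ratio of highest to lowest library was 1.48 for the members and 1.52 for all peaks, and the median cosine amplitude on the log2 scale was 0.17 for both. This ratio differed with the strength of a peak: its median over all peaks was 1.75 among the weakest (mean up to 110.7) and 1.34 among the strongest (mean over 525.9), classes that held 2 and 4 of the members.

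**Figure D5:**
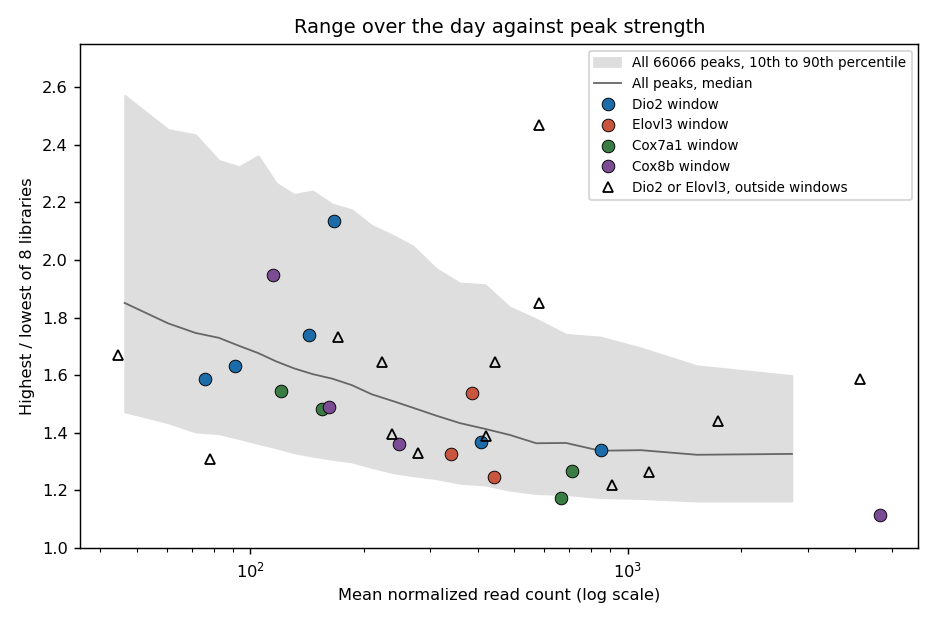
Ratio of the highest to the lowest of the 8 libraries (vertical axis) against the mean normalized read count (horizontal log axis) for the 17 members (filled circles, coloured by window) and for the 14 peaks of Dio2 and Elovl3 outside the windows (open triangles). The grey band is the 10th to 90th percentile and the line the median of all 66066 peaks in 24 bins of strength. The Cox8b promoter peak is at a ratio of 1.11 on the right, and the peak 131 kb from the Dio2 start at 2.47.

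Beyond the windows, a further 12 peaks had Dio2 as the gene of the nearest start site, all of them on the far side of the gene at 93.8 to 172 kb from its start, and 2 had Elovl3. They were looked at after their values had been seen, apart from the peak at 131 kb, which the rule for named peaks selects. Of these 14 peaks, 4 were called by JTK-cycle (beside 11.6% of all peaks), 5 by edgeR (beside 13.4% of all peaks) and 3 by both. The strongest, 93.8 kb from the Dio2 start (chr12:90643033-90647516), had a mean normalized count of 4137 and 923 reads per kb. Its counts were 3887, 4144, 5136 and 4678 in the light phase (ZT0 to ZT9) and 4760, 3237, 3642 and 3611 in the dark phase (ZT12 to ZT21), so it was highest at ZT6 and lowest at ZT15, as the Dio2 promoter peak was. edgeR called it (adjusted p = 0.0144) and JTK-cycle did not (exact P = 0.467).

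The peak 131 kb from the Dio2 start (chr12:90607292-90608519) was called by both, at an edgeR adjusted p of 0.000385 and an exact JTK P of 0.0260 with a LAG of 12 h. Its counts were 399, 366, 556 and 862 in the light phase (ZT0 to ZT9) and 905, 663, 500.0 and 404 in the dark phase (ZT12 to ZT21), with a ratio of 2.47. The distal Elovl3 peak, 27.3 kb upstream (chr19:46103565-46105653), had 508, 597, 758, 630, 680, 548, 410 and 527 from ZT0 to ZT21, with a LAG of 9 h (exact JTK P = 0.0260, edgeR adjusted p = 0.0253). The other Elovl3 peak, 22.3 kb upstream (chr19:46107913-46111244), was stronger, with a mean of 908, and was called by neither (exact JTK P = 1, edgeR adjusted p = 0.414). Nearest start site alone ties these peaks to the genes.

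Peaks of other genes in the same pathways were counted beside the shares of all peaks called, 11.6% by JTK-cycle and 13.4% by edgeR. Of the 19 genes of cytochrome c oxidase subunits, 17 had a peak, and 9 of their 62 peaks were called by JTK-cycle (14.5%) and 3 by edgeR (4.84%). The call with the largest range was a peak nearest Cox6c (262 at ZT6 to 592 at ZT15, exact JTK P = 0.0260), 121 kb from its start, followed by one nearest Cox4i1 (530.0 at ZT12 to 1044 at ZT0, exact JTK P = 0.0260), 17634 bp from its start. By strongest peak, the liver-type isoform gene Cox8a (3582) was the next after Cox8b (4671) in this list.

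Of the 13 genes of fatty acid elongation, 10 had a peak, and 13 of 70 peaks were called by JTK-cycle (18.6%) and 6 by edgeR (8.57%). The largest ranges among the calls were at a peak nearest Elovl5, which elongates polyunsaturated fatty acids (328 at ZT6 to 1180 at ZT18, exact JTK P = 0.0260), and at one nearest Hacd2, a dehydratase of the elongation cycle (753 at ZT0 to 1849 at ZT12, exact JTK P = 0.00595). They lay 70933 bp from the Elovl5 start and 16120 bp from the Hacd2 start. Elovl1, Elovl2 and Elovl6 had no peak nearest to them. Of the 9 genes of thyroid hormone handling, 8 had a peak, and 13 of 110 peaks were called by JTK-cycle (11.8%) and 12 by edgeR (10.9%). The largest ranges were at a peak nearest the receptor gene Thrb, 228115 bp from its start (111 at ZT3 to 397 at ZT15, exact JTK P = 0.0260), and at the Dio2 peak 131 kb away.

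Of the 13 genes of the brown fat programme, 12 had a peak, and 17 of 125 peaks were called by JTK-cycle (13.6%) and 25 by edgeR (20.0%). The largest ranges were at a peak nearest the coactivator gene Ppargc1a (1505 at ZT15 to 3370 at ZT6, exact JTK P = 0.000744) and at one nearest the uncoupling protein gene Ucp1 (7422 at ZT18 to 15810 at ZT9, exact JTK P = 0.00595). They lay 28074 bp from the Ppargc1a start and 2036 bp from the Ucp1 start. Over the 4 lists 52 of 367 peaks were called by JTK-cycle, and 16 of the 104 within 10 kb of the start site, where 10.5% of all peaks within 10 kb were called. These lists are described by their counts only, and the Dio2, Elovl3, Cox7a1 and Cox8b peaks are among them.

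Among 21379 peaks with a mean of at least 100 and a start site within 10 kb, those with the course most like each promoter peak over the 8 libraries were named. For Dio2 these lay at Rsph1 (r = 0.98), Ecsit (r = 0.97) and Pcbp2 (r = 0.97), for Elovl3 at Scly (r = 0.98), Ubl3 (r = 0.97) and Mbd2 (r = 0.94), for Cox7a1 at Pex26 (r = 0.94), Smim19 (r = 0.92) and Tcirg1 (r = 0.91), and for Cox8b at Nectin3 (r = 0.98), 9430078K24Rik (r = 0.97) and Pcf11 (r = 0.97). An r above 0.9 was reached by 212 peaks for Dio2, 80 for Cox8b, 16 for Elovl3 and 4 for Cox7a1. All these values come from the same 8 libraries and were picked as the highest of 21379, so they describe likeness only.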

How the data were processed

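PPARγ ChIP-sequencing libraries of pooled iBAT were analysed, 1 at each of the 8 time points. The input of ZT12 is not analysed here. The authors used BWA 0.7.17 for mapping to mm10, MACS2 2.1.2 for calling peaks and HTSeq 1.99.2 for counting reads, and retained peaks that reached an FDR of 0.05 in 6 or more libraries, per the paper's methods and the submitters' processing notes. The deposited values are these counts per peak, not normalized. Handling of duplicate reads, which could change the counts, is not given in the sources used here.

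TMM factors were taken from edgeR 4.0.16 (R 4.3.3). The JTK-cycle test was written anew in Python 3.11.15 (exact null distribution, periods of 21 and 24 h, adjusted over 15 combinations), and a 24-h cosine was fitted by the quasi-likelihood method of edgeR (5 residual degrees of freedom, common dispersion 0.0116). Both were run on all 66066 peaks, with Benjamini-Hochberg adjustment over all of them, and were tested on simulated data. Amplitudes with an SE come from least squares on log2 normalized counts. Peaks were assigned to the nearest RefSeq start site on GRCm38.p6 (66059 assigned). Alternatives used DESeq2 1.42.0 and limma 3.58.1, other normalizations, a filter on low counts, other periods and thresholds, and each library left out. Intervals were calculated at 95% with statsmodels 0.14.6 and scipy 1.17.1.

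The named peaks were all those in the 4 windows, the 3 peaks most like each promoter peak (1 per gene), and from each related list the 2 oscillating peaks with the largest ratio of highest to lowest library and a mean of at least 100. The members and lists were chosen with earlier results of these data known. Some sequence stretches of the windows are not reported here.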

Additional observations from a re-analysis of the deposited data

How the results depend on the processing

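The number of member peaks called by JTK-cycle, 3 in the main setting with TMM factors, was 1 with library totals alone (12.3% of all peaks called), 0 at an adjusted P under 0.01 (4.66%) and 0 at a q under 0.05 (0%), and it ran from 0 to 4 with each library left out in turn (11.2 to 16.4%). With a period of 24 h alone it was 2 (15.0%), the peak 8.4 kb upstream of Cox8b and the one upstream of Capns1. It was 0 without ZT6, ZT15, ZT18 or ZT21, 1 without ZT0, 3 without ZT3 or ZT12 and 4 without ZT9, where 7 libraries remain and the steps of P are coarser. The number passing the edgeR 24-h cosine, 0 in the main setting, was 1 with cyclic loess, the Cox8b promoter peak at an adjusted p of 0.0231 (11.1% of all peaks called), and was 0 in each of the leave-outs, where 4.64% (without ZT18) to 16.96% (without ZT3) of all peaks were called. The within-locus ratio (exact JTK-cycle P, 0.0826 at both Dio2 and Cox8b) was 0.0441 at both with a period of 24 h alone, and 1 at Dio2 and 0.467 at Cox8b against the sum of all other peaks. With single libraries left out it ran from 0.0417 to 0.452 at Dio2, from 0.161 to 1 at Elovl3, from 1 to 1 at Cox7a1 and from 0.0417 to 0.161 at Cox8b. The share of member peaks with a DR1 element, 35.3% with up to 2 mismatches, was 11.8% with up to 1 and 82.4% with up to 3, where all peaks gave 4.99% and 69.5%. The oscillating peaks of the related lists fell from 52 to 16 with a start site within 10 kb, since fewer peaks were counted. The filter on low counts removed 0 peaks. The cause of these changes was not tested. No paired analysis was possible because each time point has 1 library. Counting error limits peaks of under 100 reads, of which the members held 2.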
